A study of Homo sapiens with 12 samples.

Results

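The cytosolic ribosome is built from rRNA and one copy each of most of its ribosomal proteins, and the genes that encode these proteins are described here one by one. Members were the protein-coding symbols that start with RPL, the prefix of the large (60S) subunit, or RPS, that of the small (40S) subunit, followed by digits and an optional A, X or L. RPLP0, RPLP1, RPLP2 and RPSA were included, and processed pseudogenes, the RPS6K kinases and Y-linked symbols were left out. This rule, which uses names and at least 1 read in the coding sequence (CDS), gave 85 of the 38716 gene symbols in the tables, with 53 in the large and 32 in the small subunit. Among the 85 were 8 paralogs, second gene copies that are not part of the usual set (RPL3L, RPL7L1, RPL10L, RPL22L1, RPL26L1, RPL36AL, RPL39L and RPS27L).

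Ribosome-protected fragments (RPF, the stretches of mRNA shielded by a bound ribosome) and poly(A)-enriched mRNA were sequenced from IMR90, a line of normal human fetal lung fibroblasts. Proliferating cells (Pro) were compared with cells passaged to replicative exhaustion, the senescent state (Sen), with 3 lysates per state and 1 library of each type per lysate. All cultures were grown in MEM with non-essential amino acids and fetal bovine serum, received no other treatment according to the labels, and were lysed in a buffer with cycloheximide, which stalls elongating ribosomes. The labels name isolates I90-10 and I90-79 without assigning samples to them, so an effect of isolate and the effect of state cannot be told apart. File names of the proliferating RNA-seq libraries carry the letters DSMO, and the labels do not say what they stand for.

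The 12 libraries held 7902427 to 14144455 reads in mRNA regions (RNA-seq) and 54421 to 1718521 CDS reads (RPF). Pro 1 and Sen 2 were the shallow RPF libraries, with 54421 and 54708 CDS reads, and held 2727 and 1816 footprints of ribosomal proteins (CDS reads) against 19425 to 75209 in the other 4. In Sen 2, 45.3% of the footprints of other genes were assigned to 5′ UTRs, against 2.86% to 14.1% in the other 5 RPF libraries. Levels are counts scaled to a common library size (CPM, with TMM factors of edgeR). A fold change is given as the log2 ratio of the senescent to the proliferating level, with its standard error (SE), and a gene was called at a Benjamini-Hochberg adjusted p under 0.15 over all genes tested. The fit gives deep libraries more weight, so a fold change can differ from the ratio of mean CPM. The 7 fibroblast markers summed to 28030 to 31534 CPM of mRNA in proliferating and 26550.0 to 29765 CPM in senescent cells, while the 9 epithelial, endothelial and leukocyte markers summed to 20.2 to 23.2 CPM and 33.2 to 36.4 CPM. Most of this was CD68, 7 of the 9 had under 10 reads in every RNA-seq library, and CDH5 and CD3E had 0 in all RNA-seq libraries. MKI67, a marker of cycling cells, fell (-2.30 ± 0.08, adjusted p = 2.55e-16), and CDKN1A, which encodes the CDK inhibitor p21, rose (1.60 ± 0.07, adjusted p = 2.87e-14).

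As background, ribosomal protein mRNAs are among the most abundant in growing cells, and most begin with a 5′ terminal oligopyrimidine (TOP), a C at the cap followed by a run of C and T. Through this start their translation is known to respond together to mTOR signalling, with LARP1 binding the capped TOP end. Free ribosomal proteins such as RPL5 and RPL11 are also known to bind MDM2, which links ribosome assembly to p53.

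The starts of the genes with the widest differences below are shown to let the TOP letters be read beside their values. Each window runs from 8 bases before the annotated start to 17 bases after it, 5′ to 3′ on the gene's strand, from RefSeq on build GRCh38.p14. Capitals mark a C at most 5 bases from the start and the run of at least 4 letters C or T that follows it. Where several C open such a run, the one nearest to the start is marked. A longer run that opens further upstream can therefore begin in lower case. A window wholly in lower case has no match. RPL22, RPL22L1, RPL26, RPL26L1, RPL39, RPS27 and RPS27L are paralogs and parents (RPL39L has no entry), RPL36A, RPL3, RPS23 and RPL12 had the lowest fold changes beside RPL22L1, and RPS14, RPS18, RPL28 and RPL10L the highest in RPF or in the ratio of RPF to mRNA.
RPL22 (chr1:6199578-6199603, minus strand): ctcacctcCCTTTCTaactccgctgc
RPL22L1 (chr3:170870178-170870203, minus strand): gtagcttcCTCTCTgctctcgcggcc
RPL26 (chr17:8383176-8383201, minus strand): gtgtagttCTCTTCCCTTTTgcggcc
RPL26L1 (chr5:172958721-172958746, plus strand): caggggtcggcgaacgaaacgcggag
RPL39 (chrX:119791613-119791638, minus strand): gccagcttCCCTCCTCTTCCTTTCTC
RPS27 (chr1:153990754-153990779, plus strand): ctttcgctCCTTTCCggcggtgacga
RPS27L (chr15:63157460-63157485, minus strand): tgccgagcgcagatcgcttgcagctt
RPL36A (chrX:101391003-101391028, plus strand): cgcggtttCTTTCTTTCCgcgccgat
RPL3 (chr22:39319606-39319631, minus strand): cgaccggCCTCTaccggcgggatttg
RPS23 (chr5:82278337-82278362, minus strand): gtgcttctCTCTTTCgctcaggcccg
RPL12 (chr9:127451389-127451414, minus strand): atttccggCCTCTCggctttcggctc
RPS14 (chr5:150449722-150449747, minus strand): ctcccactCTCTCTTTCCggtgtgga
RPS18 (chr6:33272067-33272092, plus strand): cttccgctCTCTCTTCCacaggaggc
RPL28 (chr19:55385924-55385949, plus strand): tcgccttcCTCTTTCCgtctcaggtc
RPL10L (chr14:46651764-46651789, minus strand): agttaagagagcgcattttgacttcg
Each of the 4 parent genes in this list carried a TOP-like start, among the paralogs RPL22L1 did, and RPL26L1, RPS27L and RPL10L did not. Of the 68 members with an entry in the RefSeq start table, 55 (80.9%, 95% Wilson interval 70.0 to 88.5) had such a start at some listed position, against 25.2% of all 27305 genes in the table. With the C required exactly at the annotated start, the shares were 69.1% and 5.14%. The 13 members without one were RPL6, RPL7L1, RPL9, RPL10L, RPL15, RPL17, RPL26L1, RPL27, RPS4X, RPS15, RPS26, RPS27L and RPS29. A match is a description of letters at an annotated start and not of the cap site used in these cells.

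Ribosomal protein genes took a smaller share of both library types in senescent cells. Of mRNA reads, 6.38%, 6.13% and 5.76% came from the 85 genes in the proliferating libraries 1, 2 and 3, while senescent libraries 1, 2 and 3 had 3.89%, 4.12% and 3.33%. Of CDS footprints, the share was 5.01% (95% Wilson interval 4.83 to 5.20), 4.44% and 4.38% in proliferating cells and 3.52%, 3.32% (3.17 to 3.47) and 3.33% in senescent cells. The groups did not overlap in either type. In mRNA the mean share went from 6.09% ± 0.309 to 3.78% ± 0.406, and in RPF from 4.61% ± 0.350 to 3.39% ± 0.113 (SD, n = 3). These intervals hold for counting error alone, as PCR copies are not separate molecules, and fewer transcripts per cell and less RNA from cells that hold them cannot be told apart in bulk libraries.

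**Figure D1:**
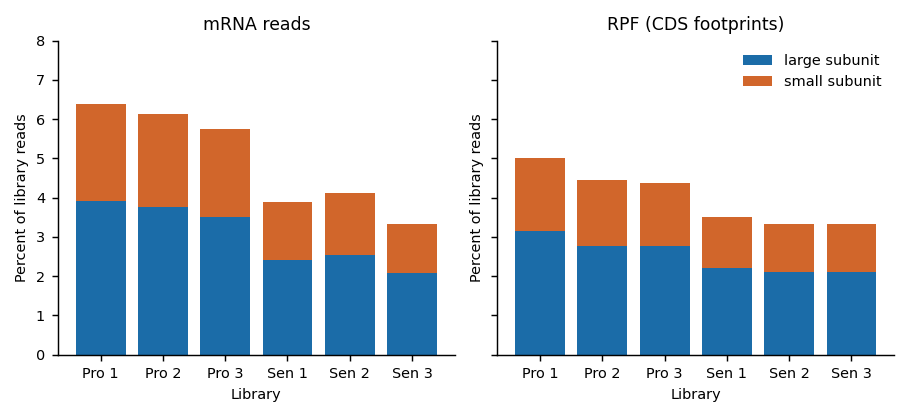
Share of each library's reads (percent, y axis) that came from ribosomal protein genes, for mRNA (left) and RPF (right), with 1 bar per library and the large and small subunit stacked. All 6 senescent bars, at 3.32% to 4.12%, end below all 6 proliferating bars, at 4.38% to 6.38%.

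At the mRNA level, nearly all members fell, by amounts from -2.20 to -0.13 among those called. Of the 84 members tested (RPL3L did not pass the filter on low counts), 81 were lower in senescent cells and none higher, where 37.0% of all 12836 tested genes were lower and 36.5% higher. At an unadjusted p under 0.05, 80 members were lower and 0 higher, and DESeq2 called 80 lower and 0 higher. The median fold change of the members was -0.55 (median SE 0.09), with quartiles of -0.66 and -0.40, against a median of -0.0058 over all genes tested. For 77 members the libraries of the states did not overlap, all lower in senescent cells (34.2% of all genes). Scaling by library totals shifted the median of all genes by -0.11 in mRNA and -0.14 in RPF, and the members then had medians of -0.65 and -0.49.

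**Figure D2:**
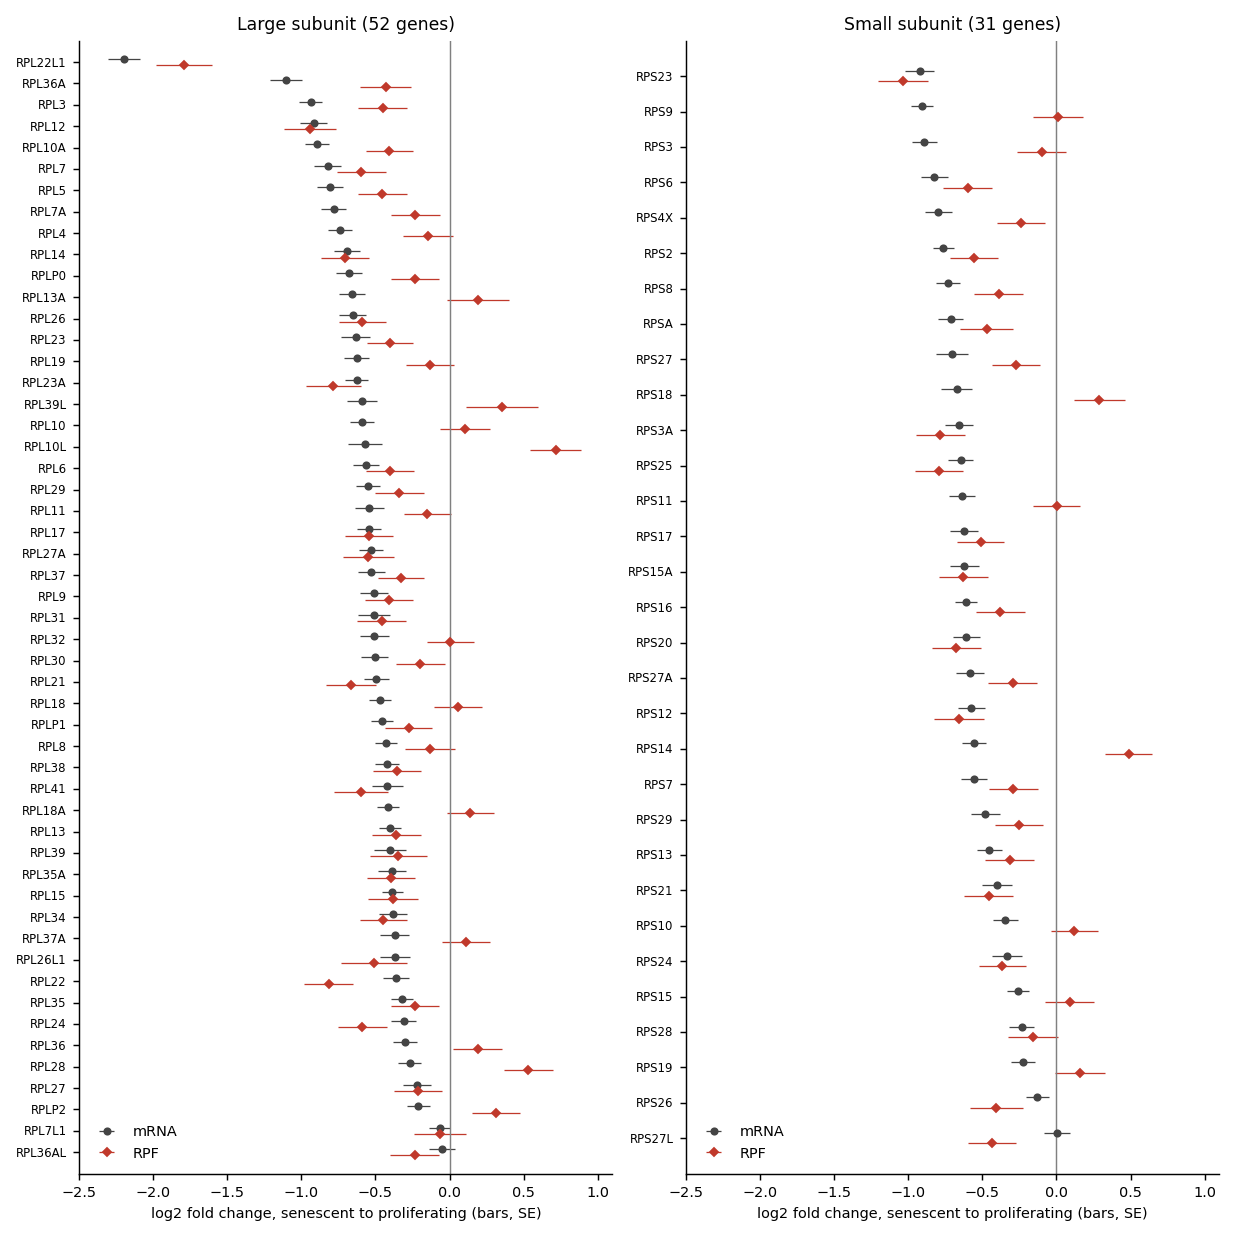
Fold change of 83 tested members (log2, senescent to proliferating, x axis) in mRNA (grey circles) and RPF (red diamonds) with SE, for the large (left) and small (right) subunit, sorted by mRNA. The mRNA points of 82 of these 83 members lie left of 0, while 18 have an RPF point to the right of 0.

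The values of a gene are given in the order of replicates 1, 2 and 3 of each state. The lowest mRNA fold change belonged to RPL22L1, the paralog of RPL22, with 145, 127 and 129 CPM in proliferating and 30.3, 34.2 and 22.2 CPM in senescent cells. Its change was -2.20 ± 0.11 (SE, adjusted p = 1.22e-13), and the libraries of the states lay far apart. RPL36A, a protein near the tRNA exit site of the large subunit, followed with 202, 181 and 170.3 CPM in proliferating and 90.7, 101 and 65.0 CPM in senescent cells (-1.10 ± 0.11, adjusted p = 1.18e-08). RPL3, which lies close to the peptidyl transferase centre, had 1934, 1828 and 1690.4 CPM in proliferating and 989, 992 and 864 CPM in senescent cells (-0.94 ± 0.08, adjusted p = 8.40e-10). The states did not overlap for these genes either. The 3 genes at the other end did not pass the test, and each is a paralog. RPS27L, known as a p53-induced gene, had 180.0, 172 and 170.5 CPM in proliferating and 176, 202 and 146 CPM in senescent cells and a fold change of 0.0035 ± 0.09 (adjusted p = 0.975). RPL36AL, a second copy of RPL36A, had 150.0, 137 and 142 CPM in proliferating and 142, 155 and 117 CPM in senescent cells (-0.05 ± 0.09, adjusted p = 0.616). For RPL7L1 the values were 162, 149 and 156 CPM in proliferating and 155, 143 and 148 CPM in senescent cells (-0.07 ± 0.07, adjusted p = 0.420). In these 3 genes the states overlapped. Levels are not compared between genes here, as they are not scaled to length.

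The mRNA reads of members were placed differently from those of other genes. In the 6 RNA-seq libraries 19.3% to 30.2% of their reads were assigned to 5′ UTRs and 1.68% to 2.59% to 3′ UTRs, while the other genes had 8.58% to 11.2% and 26.2% to 30.0%. By gene, RPL38 had the highest 5′ UTR share, 65.0% ± 6.54 in proliferating and 61.3% ± 3.99 in senescent cells (SD, n = 3). With CDS reads alone, 74 members were called lower in mRNA and 0 higher (0 also at an unadjusted p under 0.05 by edgeR), with a median of -0.50.

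Footprints of most members fell too, with a smaller median and a wider spread than mRNA. In RPF, 48 of 84 members were lower and 4 higher, where 26.9% of all 7521 tested genes were lower and 27.5% higher. The median fold change was -0.35 (median SE 0.16), with quartiles of -0.51 and -0.12, against a median of -0.0033 over all genes. The states did not overlap for 44 members, all lower in senescent cells (15.7% of all genes). Without the shallow libraries Pro 1 and Sen 2, 50 members were lower and 8 higher, and 46 of the 48 lower calls were kept. The RPF fold change was above the mRNA fold change in 60 of 84 members. Across members the 2 fold changes correlated with r = 0.47 (Spearman rho = 0.30), against 0.80 (rho = 0.79) over 7473 genes. The number of calls rested on the deep libraries, with 23 lower without Pro 3, 25 without Sen 3, 31 without Pro 2 and 25 by DESeq2.

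The lowest RPF fold change again belonged to RPL22L1, with 191, 233 and 232 CPM in proliferating and 61.0, 123 and 70.0 CPM in senescent cells (-1.79 ± 0.19, adjusted p = 7.51e-13). The states did not overlap, and its Sen 2 value rests on 7 reads. RPS23, a protein of the decoding centre, had 278, 525 and 539 CPM in proliferating and 257, 352 and 208 CPM in senescent cells (-1.04 ± 0.17, adjusted p = 5.24e-07). RPL12, at the base of the stalk, had 121, 193 and 209 CPM in proliferating and 103, 123 and 99.1 CPM in senescent cells (-0.94 ± 0.18, adjusted p = 8.99e-06). Among the deep libraries both senescent values of each of the 3 genes lay below both proliferating ones, while for RPS23 and RPL12 Sen 2 lay above Pro 1. The highest fold change was that of RPL10L, a copy of RPL10 known from testis, with 312, 227 and 240.3 CPM in proliferating and 311, 352 and 517 CPM in senescent cells (0.72 ± 0.17, adjusted p = 4.37e-04). RPL28 had 746, 470.4 and 519.9 CPM in proliferating and 754, 615 and 834 CPM in senescent cells (0.53 ± 0.17, adjusted p = 0.00726). RPS14, on the platform of the small subunit, had 486, 344 and 358 CPM in proliferating and 519.9, 387 and 537 CPM in senescent cells (0.49 ± 0.16, adjusted p = 0.0111). For these 3 genes Pro 1 lay above Pro 2 and Pro 3, and the states overlapped through Pro 1. The fourth member called higher was RPLP2, a stalk protein (0.31 ± 0.16, adjusted p = 0.115). Of these 4 calls, RPL10L alone remained without Pro 3 and by DESeq2, and RPL10L and RPS14 remained without Sen 3.

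Genes of the large and of the small subunit both fell. In mRNA 50 of 52 large subunit genes and 31 of 32 small subunit genes were lower, with medians of -0.51 and -0.61. In RPF 29 large subunit genes were lower and 3 higher, against 19 and 1 in the small subunit, with medians of -0.35 and -0.34. The log2 ratio of summed large to summed small subunit CPM in mRNA was 0.66, 0.66 and 0.65 in the proliferating libraries, against 0.71, 0.69 and 0.75 in the senescent ones. All 3 senescent ratios were above all 3 proliferating ones, by 0.06 in the mean. In RPF the same ratio was 0.75 ± 0.02 in proliferating and 0.78 ± 0.02 in senescent cells (SD, n = 3), a difference of 0.02 that is within the spread. With the median over members in place of sums, the mRNA difference was 0.12 and the RPF difference turned to -0.07.

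By role in the ribosome, every member named in the groups below fell in mRNA apart from RPS27L, and members of one group differed more in RPF. Of the stalk proteins, which recruit elongation factors, RPL12 fell in RPF (-0.94), RPLP0 and RPLP1 had -0.23 and -0.28 without passing (adjusted p = 0.242 and 0.160), and RPLP2 rose. RPL5 and RPL11, which form a particle with 5S rRNA, fell in mRNA by 0.80 and 0.54 on the log2 scale. In RPF RPL5 fell (-0.45, adjusted p = 0.020) and RPL11 did not pass (-0.15, adjusted p = 0.472), although its senescent libraries all lay below the proliferating ones. Of the proteins that line the exit tunnel, through which the nascent chain leaves, RPL17 and RPL39 fell in RPF (-0.54 and -0.34) and RPL4 did not pass (-0.14). Around the tunnel's exit RPL23A, RPL26 and RPL31 fell (-0.79, -0.59 and -0.46), while RPL19 and RPL35 had -0.13 and -0.23 without passing. With trends of coding length and GC content removed, RPL19 and RPL35 were lower in RPF (-0.33 and -0.47, adjusted p = 0.0674 and 0.00620). So were RPLP0 and RPLP1 (-0.47 and -0.43, adjusted p = 0.00607 and 0.0138). RPL39 and RPLP2 then did not pass (0.20 and 0.14, adjusted p = 0.409 and 0.478).

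In the small subunit, the proteins of the decoding site and mRNA entry split, though not with trends of coding length and GC content removed. RPS23 and RPS2 fell in RPF (-1.04 and -0.56), and RPS3 and RPS15 had -0.10 and 0.09 without passing. With these trends removed RPS23 and RPS2 stayed lower in RPF. RPS3 and RPS15 were then lower too (-0.31 and -0.33, adjusted p = 0.0885 and 0.0624). On the beak, RPS12 and RPS27A fell (-0.66 and -0.30) and RPS10 had 0.12. On the platform and around the mRNA exit, RPS3A and RPS26 fell (-0.78 and -0.41), RPS14 rose, and RPS28 had -0.16 without passing. With the same trends removed RPS28 was lower (-0.47, adjusted p = 0.00837). RPS27A and RPS14 then did not pass (-0.03 and 0.25, adjusted p = 0.909 and 0.172). Of the 7 members known to bind MDM2, 6 fell in mRNA, with RPS27L as the exception, and 5 in RPF (RPL5, RPL23, RPL26, RPS7 and RPS27L). Of 12 members in which loss-of-function mutations are known to cause Diamond-Blackfan anaemia, all 12 fell in mRNA and 8 in RPF, and the medians were -0.44 and -0.37. Over all members 96.4% were lower in mRNA and 57.1% in RPF (37.0% and 26.9% of all genes), so neither set is set apart by these counts. Of the MDM2 binders, RPS7 and RPS27L did not pass in RPF with trends of coding length and GC content removed.

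The change of translational efficiency (TE), that is the difference between the RPF and the mRNA change in a fit that pairs both libraries of a lysate, was positive for most members. Of 84 members, 25 were higher in senescent cells and 1 lower, where 4.88% of all 7473 tested genes were higher and 4.48% lower (9.37% in either direction). The members' median was 0.22 against -0.01 over all genes, and 65 of 84 fold changes were above 0. All 25 had lower mRNA in senescent cells, and of them 4 rose, 3 fell and 18 did not pass in RPF. The number of calls depended strongly on the fit: 34 were higher without lysates Pro 1 and Sen 2, 2 without Sen 3, 4 without Pro 2, 7 without Pro 3, 8 without Sen 1, and 0 by DESeq2, by which 10 members were higher at an unadjusted p under 0.05. With CDS reads as the mRNA level, 14 were higher and 2 lower. Analysis of partial variance gave a median of the opposite sign, -0.45, with 0 members called (0 higher and 1 lower at an unadjusted p under 0.05). This method regresses footprints on state and mRNA with a free slope for mRNA, and limma moderates its variances. Its value is therefore not the RPF change less the mRNA change, and the 2 medians are not like for like.

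Senescent lysates differed from one another in this ratio. The members' median log2 ratio of RPF to mRNA, less the median of all genes in the same lysate, was -0.32, -0.36 and -0.28 for the proliferating lysates in order of replicate, against -0.06, -0.47 and 0.21 for the senescent ones. Sen 1 and Sen 3 lay above all proliferating lysates, and the shallow Sen 2 lay below them. Ratios of the states did not overlap for 19 members, 16 higher (7.64% of all genes) and 3 lower (8.59%).

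The highest TE changes that passed were those of RPL10L (1.26 ± 0.19, adjusted p = 2.17e-06), RPS14 (1.07 ± 0.17, adjusted p = 4.94e-06) and RPS18, a protein of the small subunit head (1.04 ± 0.20, adjusted p = 3.07e-04). For RPS14 the mRNA was 415, 430.4 and 368 CPM in proliferating and 269, 307 and 248 CPM in senescent cells, so that its mRNA was lower and its footprints higher in the deep senescent libraries. In mRNA RPS18 had 1152, 1124 and 1210.4 CPM in proliferating and 739, 874 and 570.4 CPM in senescent cells. In RPF it had 885, 525 and 513 CPM in proliferating and 691, 422 and 793 CPM in senescent cells, highest in Pro 1 and lowest in Sen 2. Its RPF change did not pass (0.29 ± 0.17, adjusted p = 0.175). Without Pro 1 and Sen 2, RPS18 rose in RPF (0.51, adjusted p = 0.00141). RPL10L and RPS14 were the members still higher in TE without Sen 3. By DESeq2 none of the 3 passed in TE, and by analysis of partial variance RPS14 and RPS18 turned to -0.19 and -0.997. The member called lower was RPL22 (-0.46 ± 0.18, adjusted p = 0.136).

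RPL22 and RPL22L1, which occupy the same site on the large subunit, both fell, and to different degrees in mRNA. RPL22L1 mRNA reads were 32.6%, 31.2% and 32.9% of those of RPL22 in proliferating cells, against 9.17%, 9.49% and 8.14% in senescent cells. The ratio fell by 3.61-fold, and the states did not overlap (two-sided exact permutation test, p = 0.1, the smallest that 3 against 3 allows, and 0.2 after Benjamini-Hochberg over the 8 ratios). In footprints the ratio was 59.0%, 72.4% and 79.1% in proliferating and 31.9%, 71.4% and 47.7% in senescent cells, and here the states overlapped through Sen 2, with 7 and 10 reads (exact p = 0.2, adjusted 0.320). RPL22 mRNA was at 445, 407 and 391 CPM in proliferating and 331, 361 and 273 CPM in senescent cells (-0.36 ± 0.09). Its footprints were at 329.7, 322 and 293 CPM in proliferating and 192, 176 and 148 CPM in senescent cells (-0.81 ± 0.17, adjusted p = 4.17e-05). The states did not overlap in either.

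RPS27L and RPS27, which carry the same zinc finger, moved apart in mRNA. RPS27L reads were 27.1%, 30.4% and 31.3% of RPS27 reads in proliferating and 48.2%, 46.5% and 50.3% in senescent mRNA, 1.64-fold higher in senescent cells (exact p = 0.1, adjusted 0.2). RPS27 fell, with 665, 568 and 545 CPM in proliferating and 364, 435 and 289.9 CPM in senescent cells (-0.71 ± 0.11), while RPS27L did not pass the test in mRNA. In footprints RPS27L exceeded RPS27 in all 6 libraries, at 119% to 174% of it, with no separation of the states (exact p = 0.3, adjusted 0.343). RPS27L fell in RPF, with 399, 413 and 449 CPM in proliferating and 357, 211 and 288 CPM in senescent cells (-0.44 ± 0.16, adjusted p = 0.0229). RPS27 had 226, 341 and 293 CPM in proliferating and 285, 176 and 226 CPM in senescent cells (-0.27 ± 0.16, adjusted p = 0.176). With trends of coding length and GC content removed, RPS27L no longer passed in RPF (0.04, adjusted p = 0.838). Both genes have 84 codons, so the RPF ratios need no scaling to coding length, while the mRNA ratios include UTR reads. Every 28-base stretch of the RPS27 coding sequence also occurs in transcripts of other gene symbols, against 15.1% of those of RPS27L. The part of read assignment in their ratio was not tested.

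RPL39L, a copy of the tunnel protein RPL39 that is known to be abundant in testis, fell in mRNA together with its parent. It had 65.1, 53.7 and 51.6 CPM in proliferating and 37.5, 42.4 and 32.2 CPM in senescent cells (-0.59 ± 0.10). RPL39 had 359.6, 309 and 297 CPM in proliferating and 252, 289 and 189.6 CPM in senescent cells (-0.40 ± 0.11). The mRNA ratio lay at 14.7% to 17.0% in senescent and 17.3% to 18.1% in proliferating cells (exact p = 0.1, adjusted 0.2). In RPF the ratio reached 33.9% in proliferating cells, was lowest in Pro 1, and ranged from 23.1% to 61.9% in senescent cells (exact p = 0.3, adjusted 0.343). RPL39L had 4, 30 and 75 reads in proliferating and 88, 1 and 32 reads in senescent cells in RPF. RPL39 had 22, 104 and 222 reads in proliferating and 198, 6 and 52 reads in senescent cells. The shallow libraries held 4 and 1 reads of RPL39L. Its RPF change was 0.36 ± 0.24 (adjusted p = 0.241) beside -0.34 ± 0.19 for RPL39 (adjusted p = 0.143).

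RPL26L1, the paralog of RPL26, had the fewest mRNA reads of the 4 relative to its parent, without scaling to length. Its mRNA reads were 4.09% to 4.52% of those of RPL26 in proliferating and 5.02% to 5.41% in senescent cells, a log2 difference of 0.29 (exact p = 0.1, adjusted 0.2). RPL26L1 had 32.9, 33.0 and 28.5 CPM in proliferating and 25.3, 26.6 and 21.0 CPM in senescent cells (-0.37 ± 0.10). RPL26 mRNA was at 789, 730.1 and 697 CPM in proliferating and 487, 531 and 389 CPM in senescent cells (-0.65 ± 0.09). In RPF RPL26L1 had 52.1, 75.7 and 72.1 CPM in proliferating and 48.2, 70.3 and 54.4 CPM in senescent cells (-0.51 ± 0.23, adjusted p = 0.0605). RPL26 had 329.7, 529.8 and 510.3 CPM in proliferating and 362, 316 and 294 CPM in senescent cells in RPF (-0.59 ± 0.16, adjusted p = 0.00215). Both fell, and their ratio overlapped between states (exact p = 0.6, adjusted 0.6).

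**Figure D3:**
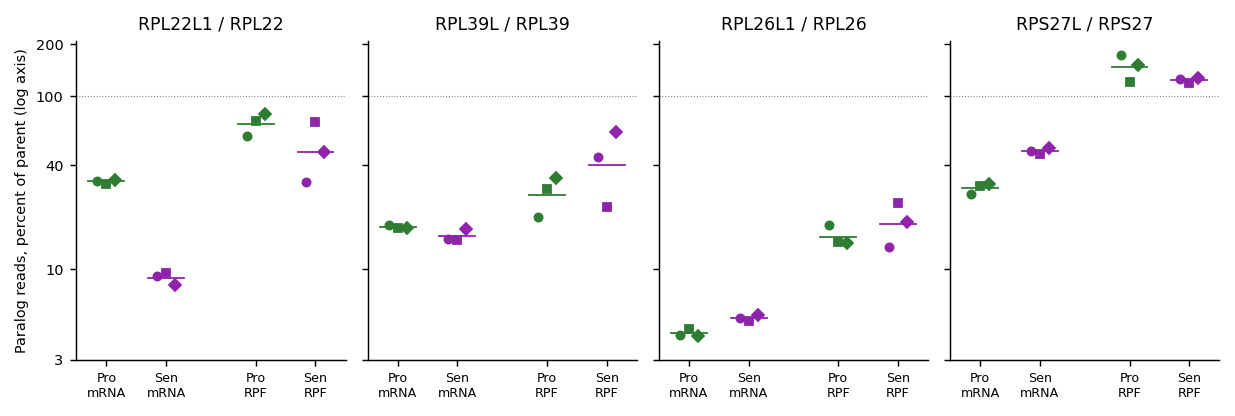
Reads of each paralog as a percentage of its parent's reads (log axis) in mRNA and RPF, with 1 point per library (circle, square and diamond for replicates 1, 2 and 3; green proliferating, purple senescent) and the geometric mean as a line. In mRNA the states do not overlap in any pair, with RPL22L1 at 31.2% to 32.9% of RPL22 in proliferating and 8.14% to 9.49% in senescent cells, while in RPF they overlap in every pair.

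How far reads can be assigned to one copy differs between the pairs. The first 28 coding bases, about the length of a footprint, are shown for the copies of equal length, from the GENCODE canonical transcripts, with the bases that differ from the other copy in capitals.
RPL39L: atgtcttctcacaagactttcaCCatta
RPL39: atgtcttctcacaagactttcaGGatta
RPL26L1: atgaagttCaatcccttCgtTacCtcGg
RPL26: atgaagttTaatcccttTgtGacTtcCg
RPS27L: atgcctTtGgcTaGAgatTtActAcatc
RPS27: atgcctCtCgcAaAGgatCtCctTcatc
RPL10L: atgggGcgccgTccAgcTcgCtgttacc
RPL10: atgggCcgccgCccCgcCcgTtgttacc
RPL36AL: atggtCaacgtAcctaaaacccgAAgAa
RPL36A: atggtTaacgtCcctaaaacccgCCgGa
Over the whole coding sequence, RPL39L and RPL39 were 94.8% identical, RPL36AL and RPL36A 89.9%, RPL10L and RPL10 89.1%, RPL26L1 and RPL26 84.1% and RPS27L and RPS27 77.8%. Stretches of 28 bases with at most 2 differences made up 77.8%, 34.0%, 41.6%, 16.9% and 0% of them in that order. Of all 85 members, 11 (RPL36A, RPL39 and RPS27 among them) had every 28-base stretch also in a transcript of another gene symbol, and the median member had 78.8%. How the authors placed reads with several matches is not given in the sources used here, so levels of near-identical copies are uncertain.

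RPL10L stood apart in its ratio of footprints to mRNA. In mRNA it fell, with 49.3, 40.2 and 39.3 CPM in proliferating and 30.7, 32.7 and 22.6 CPM in senescent cells (-0.57 ± 0.12). Its ratio of RPF to mRNA was the highest of all members in every lysate, from 5.67 in Pro 2 to 22.9 in Sen 3. No other member reached a log2 ratio of 2. This ratio is not scaled to length, and the mRNA level includes UTR reads. RPL10L had 0% of its mRNA reads in the 5′ UTR in both states. RPL10 had 25.7% in proliferating and 22.0% in senescent cells. The part of read assignment in the RPL10L ratio was not tested. Its parent RPL10 fell in mRNA (-0.59 ± 0.08) and had an RPF change of 0.11 ± 0.17 (adjusted p = 0.640). In RPF RPL36AL had 208, 267 and 227 CPM in proliferating and 218, 105 and 202 CPM in senescent cells (-0.24 ± 0.17, adjusted p = 0.255). Its parent RPL36A had 226, 172 and 188 CPM in proliferating and 147, 70.3 and 128 CPM in senescent cells (-0.43 ± 0.17, adjusted p = 0.0371). Thus RPL36A fell in mRNA and in RPF, and RPL36AL passed in neither. RPL7L1 had 139, 132 and 138 CPM in proliferating and 135, 87.9 and 126 CPM in senescent cells in RPF (-0.07 ± 0.18, adjusted p = 0.783). RPL3L, the muscle counterpart of RPL3, was near the limit of detection, with 2, 4 and 4 mRNA reads in proliferating and 0, 4 and 4 in senescent libraries.

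Among members, the RPF change went with base composition. The fold change in RPF correlated across the 84 members with the GC content of the coding sequence (Pearson r = 0.54, Spearman rho = 0.56), and so it did across the 7292 tested genes with a coding length (r = 0.43). In mRNA the members' r was 0.21. In TE it was 0.37, against 0.52 in TE over the 7282 genes tested there with a coding length. Genes share libraries and are not independent, so no p-value is attached. In the third of members with the lowest GC content (40.4% to 47.5%), 25 of 29 were lower in RPF, with a median of -0.45. In the third with the highest (54.0% to 63.0%), 6 of 27 tested were lower and 3 higher, near or below the background of 26.9% and 27.5% of all genes, with a median of 0.0003. The 3 higher were RPS14, RPL28 and RPLP2, with 56.5%, 59.6% and 56.2% GC, and RPL22L1, lowest in RPF, had 40.4%.

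When the trends with coding length and GC content over all genes were removed within each library, 50 members were lower in RPF and 2 higher, and 38 of the 48 lower calls were kept. RPL10L stayed higher (0.53, adjusted p = 0.00534) and RPL39L became so (0.78, adjusted p = 0.00842). RPS14 (0.25), RPL28 (0.23) and RPLP2 (0.14) no longer passed (adjusted p = 0.172, 0.217 and 0.478). Among the lower calls, those of RPL39 (0.20) and RPS27L (0.04) turned in direction and did not pass. In TE 24 members were higher with the trends removed, of which 16 were among the 25, and RPL22 was no longer called lower (-0.15, adjusted p = 0.795). This setting was chosen after the data had been seen, and the part of base composition in the members' changes was not tested further.

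**Figure D4:**
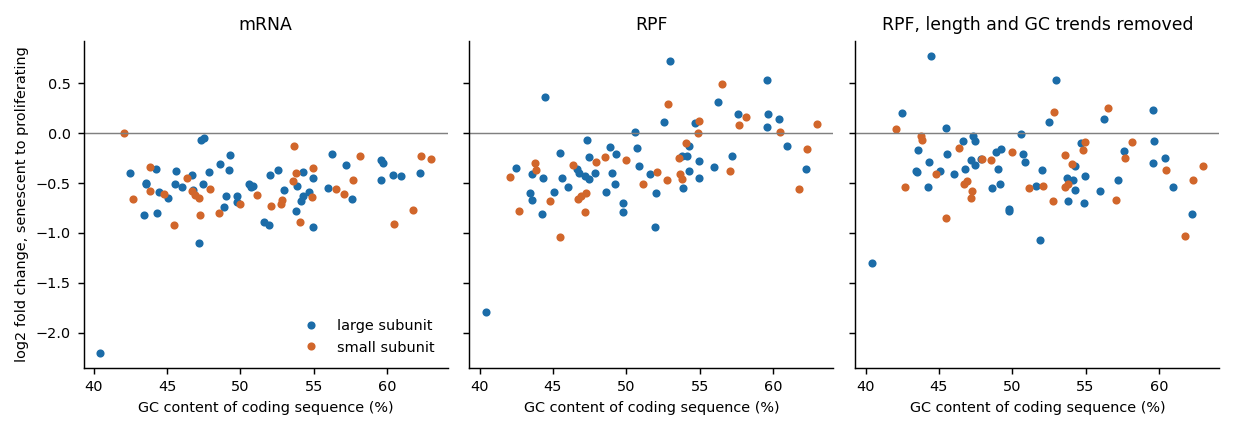
Fold change of each tested member (log2, y axis) against the GC content of its coding sequence (percent, x axis) in mRNA, in RPF, and in RPF after trends with length and GC content over all genes were removed, with 1 point per gene coloured by subunit. The RPF points rise from left to right in the middle panel (r = 0.54) and not in the right panel (r = -0.07). Removing the trend with GC content lowers this r by design, so the right panel is no separate result.

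Footprint density per kilobase of coding sequence is given for the 77 members outside the paralog list. Scaling to length does not remove the uncertain assignment of reads among gene copies. The median over these genes was 1176 CPM per kilobase in proliferating cells, with quartiles of 948 and 1498, and 907 in senescent cells, with quartiles of 662 and 1139.5. Large and small subunit genes had medians of 1158 and 1179 in proliferating and 954 and 895 in senescent cells. RPL41, a peptide of 25 codons, had the highest density in proliferating cells, 3408 ± 1056 CPM per kilobase (SD, n = 3), and 1609 ± 652 in senescent cells. Next came RPL37A with 2226 ± 21.9 and 2313 ± 299, RPL15 with 2151 ± 138 and 1540.2 ± 339, and RPS29 with 2057 ± 129 and 1518 ± 362.

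The lowest densities were those of RPL13A, 141 ± 50.8 and 129 ± 18.6 CPM per kilobase, and RPSA, 188 ± 24.4 and 145 ± 32.7. The third lowest was RPL12, with 353 ± 94.3 and 219 ± 25.9. Processed pseudogene symbols held more footprints than the gene for RPSA (192% of its reads), RPL13A (170.4%) and RPL21 (140.0%), and RPL12 had no such symbol. In all, 19 members had 31 such pseudogene symbols, and adding their reads to the parent left 47 members lower and 4 higher in RPF. Across the 77 genes, log2 densities of the states correlated with r = 0.92, given as a description.

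**Figure D5:**
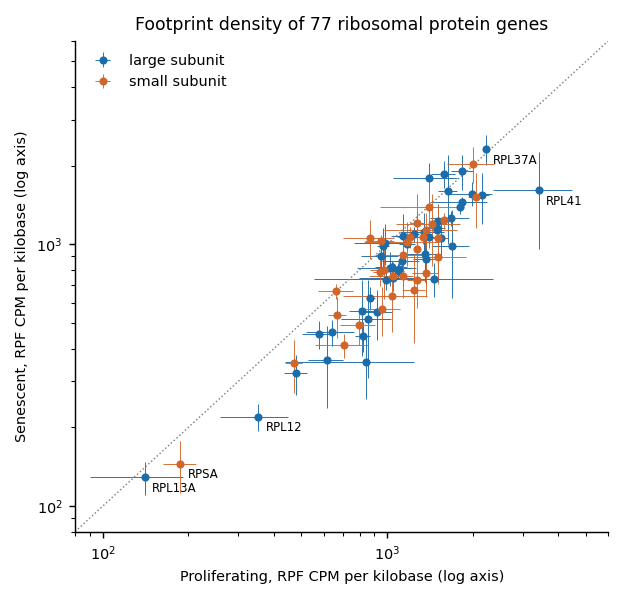
Mean footprint density of the 77 members outside the paralog list in proliferating (x axis) and senescent cells (y axis), in CPM per kilobase of coding sequence on log axes, with SD over 3 libraries and a dotted line of equality. Most points lie below the line, and RPL13A, RPSA and RPL12 are the 3 lowest.

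Genes that work beside the ribosomal proteins showed a mixed picture. FAU, which encodes a ribosomal protein fused to a ubiquitin-like part, had -0.14 ± 0.07 in mRNA (adjusted p = 0.0949) and 0.15 ± 0.16 in RPF (adjusted p = 0.475). RACK1, the scaffold protein on the 40S head, fell in mRNA (-0.78 ± 0.08) with an RPF change of -0.12 ± 0.17 (adjusted p = 0.590). Of 14 other genes known for TOP mRNAs, 13 fell and 1 rose in mRNA, and 7 fell and 2 rose in RPF. EEF1A1, the elongation factor that delivers tRNA, had -0.93 in mRNA and -0.33 in RPF (adjusted p = 0.175), while EEF2, the translocase, fell in mRNA (-0.66) and rose in RPF (0.34, adjusted p = 0.126). Of 9 chaperones and escorts of ribosomal proteins, 5 fell and 1 rose in mRNA, and of the 8 tested in RPF 4 fell and 2 rose. Beside these counts, 37.0% of all genes were lower and 36.5% higher in mRNA, and 26.9% and 27.5% in RPF. Of the chaperones, 55.6% were lower and 11.1% higher in mRNA, and 50% and 25% in RPF. These shares rest on 9 and 8 genes, and their difference from the background was not tested. LTV1 and HEATR3 fell in both layers (-0.87 and -0.85 in RPF), and TSR2, which escorts RPS26, rose in both (0.16 and 0.66).

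Regulators of TOP translation also differed among themselves. LARP1 fell in mRNA (-0.26 ± 0.07, adjusted p = 0.00195) and in RPF (-0.37 ± 0.18, adjusted p = 0.0928). EIF4EBP1, an inhibitor of cap-dependent initiation, fell in mRNA from 132 ± 11.9 to 52.1 ± 2.85 CPM (SD, n = 3) and in RPF (-1.38 ± 0.28, adjusted p = 4.51e-05). Its relative EIF4EBP2 rose in mRNA (0.66 ± 0.07, adjusted p = 4.33e-08) and in RPF (0.74 ± 0.36, adjusted p = 0.0851). MTOR did not pass in mRNA (0.08 ± 0.08, adjusted p = 0.356) or RPF (0.14 ± 0.22, adjusted p = 0.633). RPS6KB2, an S6 kinase, rose in mRNA (0.67 ± 0.09) and RPS6KB1 did not pass (-0.12 ± 0.08, adjusted p = 0.216).

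Most members with and most without a TOP-like start fell in mRNA. The 55 with such a start had a median of -0.55 in mRNA and -0.34 in RPF, with 54 lower in mRNA and 31 lower and 3 higher in RPF. The 13 without had -0.39 and -0.38, with 11 lower in mRNA and 7 lower and 1 higher in RPF, and 4 of these 13 are paralogs (RPL7L1, RPL10L, RPL26L1 and RPS27L). The 16 tested members without a table entry had -0.62 and -0.40. These counts stand beside the backgrounds of 37.0% lower in mRNA and 26.9% lower in RPF, and no difference between the groups was tested.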

How the data were processed

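Per the file headers, the deposited values are estimated counts per gene symbol and region (5′ UTR, CDS, 3′ UTR), and part of them are not whole. They were rounded to whole numbers, since the planned fits had assumed whole counts. The submitters' processing notes name cutadapt 1.18, Bowtie 1.0.1, SAMtools 1.8 and DESeq2 1.22.2 without their roles, and the genome build is not given in the sources used here.

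RPF levels were CDS reads and mRNA levels the sum of the 3 regions. Fits ran over all genes in edgeR 4.0.16 (R 4.3.3; filterByExpr, TMM, quasi-likelihood test, two-sided), with Benjamini-Hochberg adjustment and a threshold of 0.15. TE changes were the interaction of library type with state, with the lysate as a block. DESeq2 1.42.0 and limma 3.58.1 served for alternatives. The edgeR fits and the analysis of partial variance were run on simulated counts with a fixed dispersion and no differences between lysates. That simulation therefore cannot show how far TE calls depend on a lysate. Paralog ratios used 0.5 added reads. Coding length and GC content came from GENCODE canonical transcripts. Coding length was planned from protein lengths, which were not used here.

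The members and gene lists were chosen with earlier results of these data known. Values by library were given for the 4 pairs, the 3 highest and 3 lowest fold changes in mRNA and RPF, the extremes of TE among members that passed, and members that did not pass in mRNA, and other members were named by role lists. RPL36A in RPF and RPLP2, RPL41, RPL37A, RPL15, RPS29, RPL13A, RPSA and RPL38 were named after their values were seen. Same-numbered samples of the states did not deviate together (r from -0.06 to 0.07), so no block was used within a library type. The 2 libraries of a lysate had r from -0.04 to 0.05. The study's methods describe replicates that were grown independently. Alternatives covered scaling, count filters, DESeq2, pseudogene reads, CDS reads as the mRNA level, leaving out libraries, and trends with coding length and GC content. The values of 1 member and 1 related gene are not reported here.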

Additional observations from a re-analysis of the deposited data

How the results depend on the processing

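The mRNA decrease held in direction and extent under every alternative tried: 74 to 83 members were lower and 0 higher (0 also at an unadjusted p under 0.05 by edgeR and DESeq2), and leaving out 1 library gave 79 to 82 lower. RPF counts varied more. DESeq2 called 25 lower and 1 higher. Without Pro 1 and Sen 2, 8 were higher, and 2 were higher with a replicate block (38 lower) and with length and GC trends removed. Leaving out 1 library gave 23 to 56 lower and 1 to 6 higher, fewest without Pro 3. The block added no call in mRNA (81 lower), and same-numbered samples share only a number.

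TE calls depended most on the processing. With 25 higher and 1 lower as reported, keeping genes with at least 1 read gave 10 and 0, DESeq2 0 and 0 (10 and 0 at an unadjusted p under 0.05), CDS reads as the mRNA level 14 and 2, and analysis of partial variance (limma) 0 and 0 with a median of -0.45 for the members. At an unadjusted p under 0.05 this method gave 0 higher and 1 lower. The number lower was 2 with RLE factors, with library totals and with at least 10 reads in every library (68 members tested). It was also 2 with no lysate block (29 higher), and 0 with trends removed. Leaving out 1 lysate gave 2 to 32 higher and 0 to 2 lower, with 2 higher without Sen 3 and 32 without Sen 2, and medians from 0.13 to 0.30. The causes were not tested.

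Directions turned in genes near 0 and, in TE under analysis of partial variance, also in genes called higher. In mRNA, RPL36AL had 0.0080 with CDS reads only and -0.15 to 0.046 when a library was left out. RPS27L had -0.10 with library totals, -0.0075 with factors from non-members, -0.00080 with at least 1 read, -0.093 without Pro 1 and Sen 2, -0.0080 with a replicate block, -0.048 with trends removed and -0.12 to 0.11 when a library was left out. In RPF, RPL39 had 0.20 and RPS27L 0.045 with trends removed. In TE, DESeq2 gave 0.078 for RPL12, -0.24 for RPL39 and 0.092 for RPS23. CDS reads gave -0.043 for RPL26, -0.24 for RPL39 and 0.013 for RPL7L1, which had 0.0042 with no lysate block. RPL26 had -0.062 with at least 10 reads in every library. Trends removed gave 0.083 for RPL36AL, 0.016 for RPL7L1, 0.18 for RPS23 and 0.091 for RPS27L. Partial variance gave -0.59 for RPL26, -0.96 for RPL3, -1.56 for RPL36A, -0.31 for RPL39, -1.25 for RPL39L, -0.19 for RPS14, -0.997 for RPS18, 0.21 for RPS23 and -0.89 for RPS27. When a lysate was left out, TE ranged from -0.15 to 0.22 for RPL12, -0.047 to 0.22 for RPL26, -0.25 to 0.15 for RPL26L1, -0.22 to 0.097 for RPL39 and -0.20 to 0.19 for RPS23.

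The subunit balance difference was 0.12 in mRNA and -0.067 in RPF with medians over members. The share of members with a TOP-like start was 69.1% with at most 0 bases and 92.6% with at most 20 bases of distance. The paralog ratios and the read shares kept their directions when a library was left out. Depth limits RPF most, since Pro 1 and Sen 2 hold 7 or fewer reads of some paralogs.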

Other observations

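Few footprints of ribosomal protein genes lay in 5′ UTRs. The 85 genes held 124, 318 and 606 such footprints in the proliferating libraries 1, 2 and 3, against 789, 33 and 95 in the senescent libraries 1, 2 and 3. That is 4.30%, 1.03% and 0.798% of their footprints in proliferating and 1.32%, 1.72% and 0.484% in senescent cells. The states overlapped. The largest numbers came from RPS20 with 128 reads over the 6 libraries, RPS29 with 113, RPL17 with 96.5 and RPL11 with 92. In RPL11, 56 of the 92 were in Sen 1.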
